A study of Mus musculus with 6 samples.

Results

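The machinery that fills, docks, primes and fuses synaptic vesicles in the presynaptic terminal was followed through 43 genes of the medial prefrontal cortex (mPFC) transcriptome, out of 18254 genes measured. The 43 genes were listed by name, from vesicle proteins, SNAREs, active zone proteins and vesicular glutamate transporters, under a rule that names no measured value, although earlier results of these data were known, and all 43 were found in the table by their Ensembl identifiers. The samples were mPFC RNA of male EGFP-*Shank3* transgenic (*Shank3* TG) mice, which overexpress the excitatory postsynaptic scaffold Shank3 fused to green fluorescent protein, and of their wild-type (WT) littermates. Both genotypes were on a C57BL/6J background and 10 to 12 weeks old. RNA sequencing gave 3 libraries per genotype, named TG and WT with the numbers 1 to 3, and each pooled tissue from 2 mice. The promoter that drives the transgene was not given in the sources used here. The question was whether transcripts of the presynaptic side differed when a postsynaptic scaffold was overexpressed.

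In a resting terminal, vesicles are loaded with transmitter by transporters in their membrane, held in clusters by synapsins, and brought to the active zone by Rab3 and its effectors. There, RIM, Munc13, Bassoon and Piccolo hold and prime them, and the SNARE proteins syntaxin, SNAP-25 and synaptobrevin zip together to fuse the membranes. Complexins clamp and assist this step, and synaptotagmins and Doc2 proteins couple it to calcium, and the transcripts are made mainly in the cell body while the proteins act in axons that may end in another region.

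Promoter sequences were read for the 30 members with a window in the set of RefSeq promoters used here (GRCm38.p6), as the 250 bases before the start furthest upstream. The members without a window in that set were *Syt4*, *Syt5*, *Syt7*, *Syt12*, *Syt13*, *Syt17*, *Rims2*, *Snap25*, *Doc2a*, *Doc2b*, *Vamp2*, *Syngr3* and *Syn3*. The GC box, searched as GGGCGG on both strands, was present in 23 of the 30 (76.7%), against 33.0% of the 27025 genes with such a window. The TATA box, searched as TATAAA on both strands, was present in 2 of the 30 (6.67%), in *Rab3b* and *Sv2b*, against 13.0% of all windows. The cAMP response element TGACGTCA was present in 1 of the 30 (3.33%), in *Syn1*, against 1.6% of all windows. The median GC content of the windows was 61.0% for the members and 52.0% for all genes. These are letter matches in a fixed window and not measured binding sites. The 27025 genes were not restricted to genes expressed in mPFC, so whether the members differ from other expressed genes was not tested. Printed here are the windows of the 4 members that had a window and whose TG and WT libraries did not overlap, with *Slc17a7* and *Syngr1* on the higher side and *Slc17a6* and *Unc13c* on the lower side. They lie at chr7:45163671-45163920 (plus strand, *Slc17a7*), chr7:51621580-51621829 (plus strand, *Slc17a6*), chr15:80091084-80091333 (plus strand, *Syngr1*) and chr9:73969038-73969287 (minus strand, *Unc13c*). Each is written 5′ to 3′ on the strand of its gene, and capitals mark the GC box in either orientation.
Slc17a7: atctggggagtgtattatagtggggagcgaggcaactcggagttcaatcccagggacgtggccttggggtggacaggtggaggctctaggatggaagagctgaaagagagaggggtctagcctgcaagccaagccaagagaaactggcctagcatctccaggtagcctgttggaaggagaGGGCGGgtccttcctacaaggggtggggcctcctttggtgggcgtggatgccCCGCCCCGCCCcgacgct
Slc17a6: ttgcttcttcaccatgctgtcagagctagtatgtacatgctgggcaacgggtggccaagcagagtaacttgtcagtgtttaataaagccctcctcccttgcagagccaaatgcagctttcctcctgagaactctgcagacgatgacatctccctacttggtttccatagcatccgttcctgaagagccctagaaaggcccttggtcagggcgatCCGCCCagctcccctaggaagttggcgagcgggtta
Syngr1: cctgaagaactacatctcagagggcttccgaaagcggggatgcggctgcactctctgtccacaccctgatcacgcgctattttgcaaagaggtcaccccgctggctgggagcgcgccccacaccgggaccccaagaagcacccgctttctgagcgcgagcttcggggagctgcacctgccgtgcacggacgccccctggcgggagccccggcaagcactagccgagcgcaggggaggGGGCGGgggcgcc
Unc13c: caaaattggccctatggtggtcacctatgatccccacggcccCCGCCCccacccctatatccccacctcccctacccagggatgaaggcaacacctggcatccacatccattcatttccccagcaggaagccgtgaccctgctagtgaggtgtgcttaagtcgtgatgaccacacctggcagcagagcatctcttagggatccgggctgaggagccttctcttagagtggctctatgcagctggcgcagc
The *Slc17a7* window held 3 GC boxes, and the other windows printed held 1 each. None of these windows held TATAAA or TGACGTCA.

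Before the members, the libraries themselves were checked. *Shank3* was higher in all 3 TG libraries than in all 3 WT libraries, with a log2 difference of 1.18 (SE 0.10), and its adjusted p in limma was 0.0643, or 0.000437 once the replicate number was added as a block. Normalized counts summed to between 28363967 and 29447717 per library. The 6 markers of cortical excitatory neurons were detected in every library, with a summed level of 117990 to 142424 in TG and 115906 to 141558 in WT, and the inhibitory list overlapped likewise at 14087 to 15153 and 13915 to 15194. All 5 oligodendrocyte markers were lower in TG, 4 of them at an unadjusted p under 0.05, and their sums did not overlap (48956 to 66097 against 71126 to 79272). The remaining marker, *Mag*, had an unadjusted p of 0.0597 in limma and 0.025 with the block. The libraries numbered 3 shared offsets across the genotypes, and TG-2 held 1255 summed normalized counts of the olfactory bulb markers *Doc2g*, *Eomes* and *Cdhr1*, against 123 to 290 in the other 5 libraries. The choroid plexus markers summed to 202 in TG-1 and 537 in TG-3, against 95.1 in TG-2 and 74.6 to 148 in WT. That rise lay in *Ttr*, at 127, 22.9 and 445 in TG and 14.3, 12.6 and 41.7 in WT. *Folr1* and *Kl* had log2 differences of -0.12 and -0.07, and *Clic6*, at low counts, one of 0.52. The part of these library features in the results below was not tested, and values without these libraries are given for some of the results that rest on them.

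All 43 members passed the filter on low values, a mean of at least 5 normalized counts. No member of the release machinery differed between *Shank3* TG and WT mPFC at an adjusted p under 0.05 in limma's test, where the lowest adjusted p over the 43 members was 1.00. None of the 16714 genes tested passed either (0%). That 0% belongs to this fit, which was cautious. In it 2.01% of all genes had an unadjusted limma p under 0.05, against 4.98% with the replicate block. The authors' DESeq2 fit with an empirical null did call genes in these libraries. Under the replicate block, 0 members passed, with a lowest adjusted p of 0.769, and 1 gene of all (0.00598%), which was *Shank3*. The differences were small. The log2 difference of normalized counts, TG minus WT, ran from -0.28 for *Cplx3* to 0.27 for *Doc2b*, was under 0.1 in size for 32 of the 43 members, and had a median of 0.011 against -0.0037 over all genes tested. In bulk tissue, fewer cells of a type and less RNA per cell cannot be told apart, and the same holds for each difference below.

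The design bounded most members closely. The 95% confidence interval of the log2 difference lay within 0.5 of 0, a fold of 1.41, for 39 of the 43 members (90.7%), and the share among the 10204 genes at or above the lowest member's mean level was 89.5%. The intervals of *Syn3*, *Syt11*, *Doc2b* and *Cplx3* reached past 0.5, and all 43 lay within 1 of 0. With the replicate block 41 of the 43 lay within 0.5 (95.3%, against 97.2% of the genes at or above that level), and those of *Doc2b* and *Cplx3* did not. The members split into 24 higher and 19 lower in TG, that is 55.8% higher against 48.6% of all genes. This split was not stable, with 19 higher of 43 without both libraries numbered 3, 20 without TG-3 and 30 without TG-2.

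**Figure D1:**
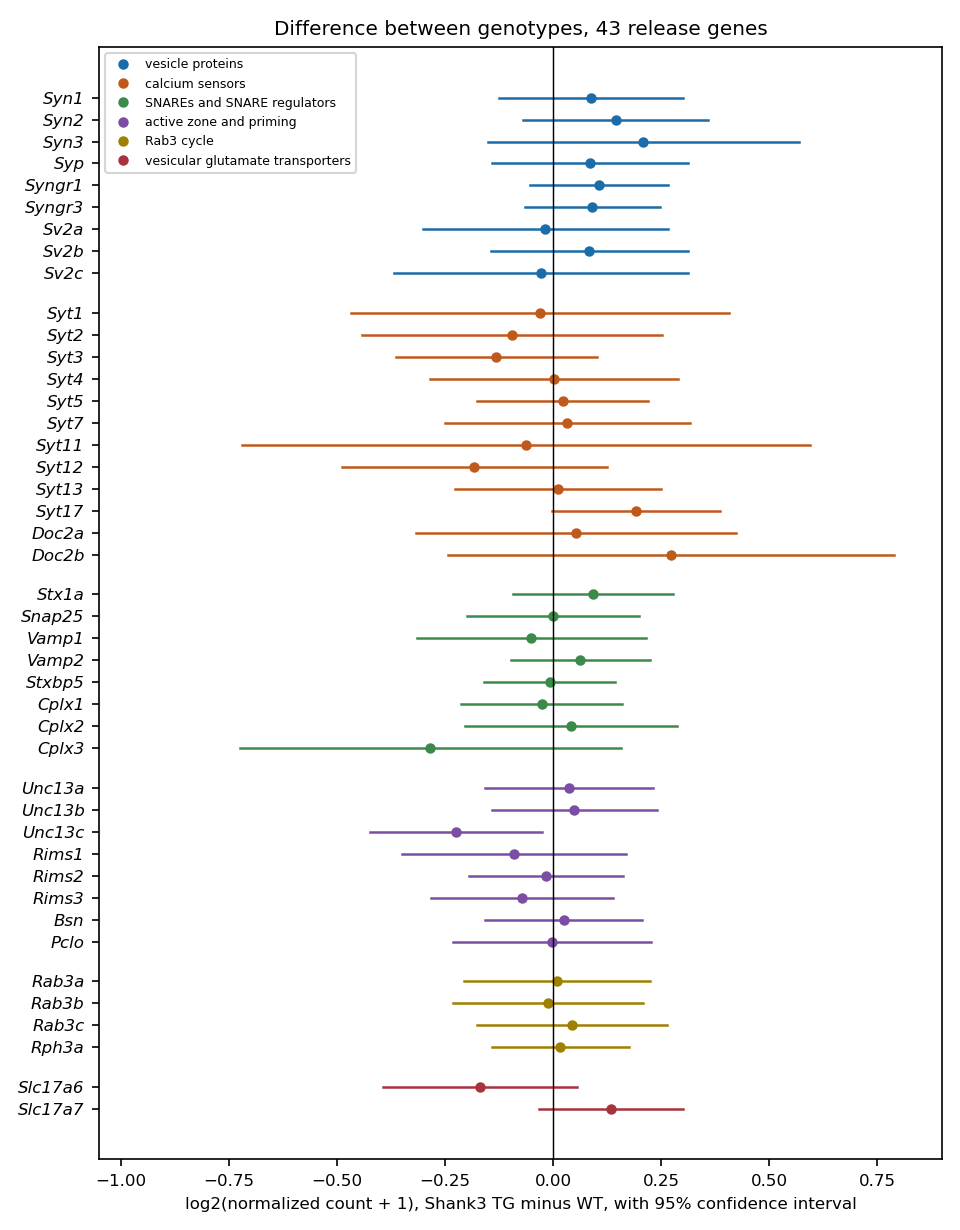
Log2 difference in normalized counts between *Shank3* TG and WT mPFC (x axis, log2 units, TG minus WT) for each of the 43 release genes (y axis), coloured by role. Points are limma estimates from 3 libraries per genotype and bars are 95% confidence intervals; the bar of *Unc13c* alone stays clear of 0, and 39 bars lie within 0.5 of it.

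At an unadjusted p under 0.05, 1 member of 43 was found (2.33%, *Unc13c*), against 2.01% of all genes. With the replicate block there were 5 (11.6%), against 4.98% of all genes, with *Syn2*, *Syn3* and *Syt17* higher and *Syt12* and *Unc13c* lower. The TG and WT libraries did not overlap at all for 7 members (16.3%), against 6.02% of all genes. Of these, 5 were higher in TG (*Slc17a7*, *Syngr1*, *Syngr3*, *Syt17* and *Vamp2*), where 2.91% of all genes were, and *Unc13c* and *Slc17a6* were lower, where 3.12% of all genes were. The difference had the same sign at all 3 replicate numbers for 13 members (30.2%), 10 higher and 3 lower, against 24.8% of all genes.

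**Figure D2:**
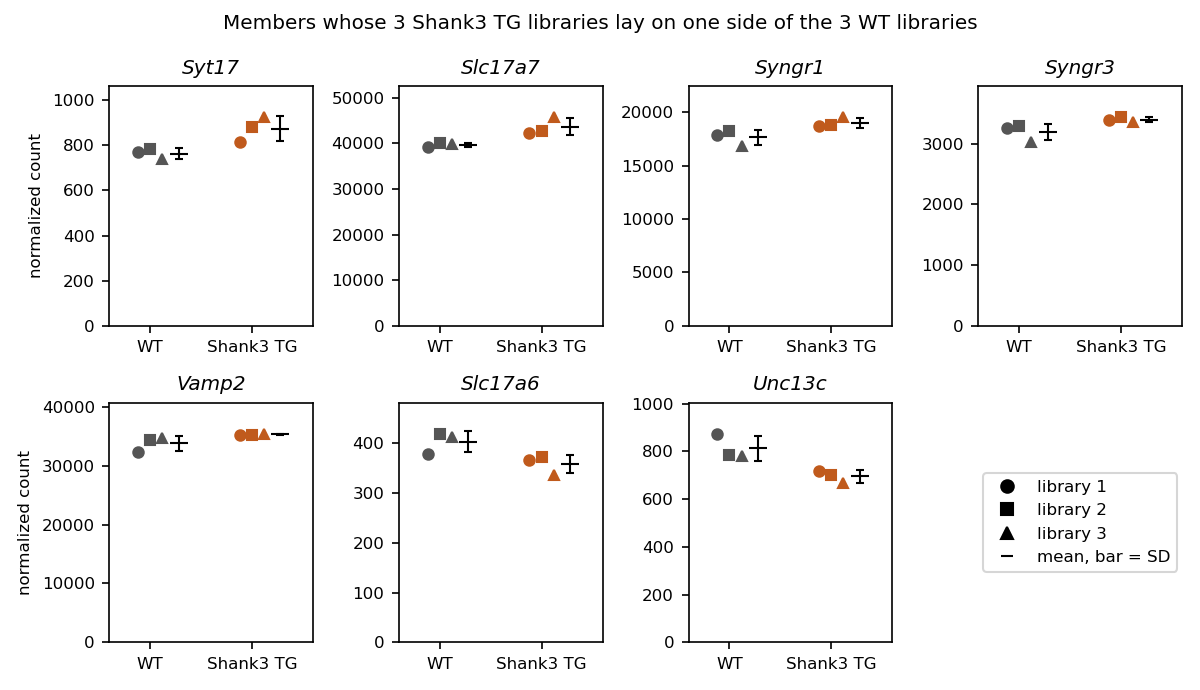
Normalized counts (y axis, from 0) of the 7 members whose 3 *Shank3* TG libraries all lay on the same side of the 3 WT libraries (x axis, genotype). Symbols are single libraries, and the dash and bar beside them are the mean and SD (n = 3); the groups separate by little next to the height of the axes, with the means of *Unc13c* at 696 in TG and 814 in WT.

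The vesicular glutamate transporters, which load glutamate into vesicles, stood on opposite sides. *Slc17a7* encodes VGLUT1, the main transporter of cortical pyramidal neurons, and measured 42302, 42776 and 45669 normalized counts in libraries 1 to 3 of TG and 39217, 40002 and 39794 in those of WT. The TG libraries were all above the WT libraries, by a log2 difference of 0.13 (SE 0.072, unadjusted p = 0.0983 in limma). *Slc17a6* encodes VGLUT2, the main transporter of thalamic and many other subcortical neurons, and measured 366, 371 and 337 normalized counts in TG and 378, 418 and 412 in WT. Here every TG library was below every WT library, with a log2 difference of -0.17 (SE 0.097, unadjusted p = 0.119 in limma). Per kilobase of exon, VGLUT1 made up 98.97% to 99.27% of the transcripts of this pair in every library. The ratio of *Slc17a7* to *Slc17a6* was 116, 115 and 136 in TG and 104, 95.6 and 96.6 in WT, a log2 difference of 0.30. The ratio was formed after the values had been seen, and since neither gene overlapped between the genotypes and they lay on opposite sides, it had to separate, and its separation adds no evidence to theirs. The thalamus markers *Tcf7l2*, *Lhx9*, *Zic1* and *Ramp3* summed to 1058 to 1337 in TG and 771 to 1379 in WT, so that list overlapped between the genotypes and none of its 4 genes was at 0. Within it, *Zic1* had a log2 difference of 0.31, with an unadjusted p of 0.260 in limma and 0.0476 with the block.

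Of the vesicle proteins, 7 of 9 members were higher in TG, with a median log2 difference of 0.09. Between libraries of the same number the median was 0.16, -0.0022 and 0.12 for numbers 1 to 3, so number 2 showed no rise. No member of the group passed the test. *Syn2* encodes a synapsin, a phosphoprotein that tethers vesicles in the reserve cluster, and measured 15475, 14902 and 17324 normalized counts in TG and 13560, 13795 and 15807 in WT. TG-1 and TG-2 lay below WT-3, so the groups overlapped, while each TG library was above the WT library of the same number. The log2 difference was 0.14 (SE 0.092), with an unadjusted p of 0.157 in limma and 0.0246 with the block. *Syn1*, the most abundant synapsin per kilobase, had a log2 difference of 0.09, and *Syn3*, the scarcest, 0.21, which ran from 0.09 without WT-1 to 0.35 without WT-3. *Syn1* took 75.4% to 75.5% of the synapsin transcripts per kilobase in TG and 75.7% to 77.0% in WT, and *Syn2* took 24.1% to 24.3% and 22.7% to 24.0%, so these shares, which together make up nearly all synapsin transcripts, separated by little but without overlap, while that of *Syn3* overlapped. Of 38 such paralogue shares computed over the families, 5 did not overlap, those of *Syn1*, *Syn2*, *Unc13c*, *Slc17a6* and *Slc17a7*. Shares within a family sum to the whole, so these are not independent results. Those of *Slc17a6* and *Slc17a7* had to separate together, given their values, and those of *Syn1* and *Syn2* nearly mirror each other. Shares were not computed for other gene families, so the count has no background.

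The synaptogyrins, vesicle membrane proteins related to synaptophysin, were both higher in every TG library. *Syngr1* measured 18655, 18786 and 19514 normalized counts in TG and 17862, 18238 and 16841 in WT. The gap between the lowest TG and the highest WT library was small next to the spread within WT. In limma this gave a log2 difference of 0.11 (SE 0.069, unadjusted p = 0.163), and for *Syngr3* it was 0.09, from 3366 to 3435 normalized counts in TG and 3033 to 3289 in WT. *Syp* encodes synaptophysin and was the most abundant of the 9 members of the vesicle protein group per kilobase in WT. It measured 42026, 41310 and 37220 normalized counts in TG and 37559, 41933 and 34305 in WT, and the groups overlapped. Its log2 difference was 0.09 (SE 0.098, unadjusted p = 0.406 in limma). Of the SV2 vesicle glycoproteins, *Sv2a*, whose protein binds the antiepileptic drug levetiracetam, *Sv2b* and *Sv2c* had log2 differences of -0.017, 0.08 and -0.027.

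The Rab3 group, the GTPases that bring vesicles to the active zone and their effector rabphilin, had log2 differences of at most 0.04 in size. *Rab3a* measured 13714, 12458 and 15339 normalized counts in TG and 14511, 13284 and 13317 in WT. The WT values lay inside the range of the TG values, and the log2 difference was 0.010 (SE 0.093, unadjusted p = 0.917 in limma). *Rab3b*, *Rab3c* and *Rph3a* had log2 differences of -0.012, 0.04 and 0.016. *Rab3a* held 79.5% to 82.9% of the Rab3 transcripts per kilobase over the 6 libraries.

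Among the active zone and priming genes, *Unc13c* was the single member past an unadjusted p of 0.05. It encodes a Munc13 priming protein best known from the cerebellum, and lies at chr9:73479422-73968966 on the minus strand (GRCm38). It measured 719.5, 701 and 668 normalized counts in TG and 874, 787 and 781 in WT. All TG libraries were below all WT libraries, by a log2 difference of -0.22 (SE 0.085, unadjusted p = 0.031 in limma, 0.0111 with the block). Without WT-1, the highest library, limma gave -0.17 with an unadjusted p of 0.104. Its share of the Munc13 transcripts per kilobase was 5.08% to 5.31% in TG and 5.73% to 6.51% in WT, while *Unc13a*, the main Munc13 gene of excitatory synapses in the forebrain, held 86.6% to 88.2%. *Unc13a* and *Unc13b* had log2 differences of 0.04 and 0.05.

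*Rims1* encodes RIM1, the scaffold that recruits Munc13 and calcium channels, and was the most abundant active zone member per kilobase in WT. It measured 10184, 10484 and 9217 normalized counts in TG and 11931, 10985 and 9063 in WT, with WT-3 below all TG libraries. Its log2 difference was -0.09 (SE 0.11, unadjusted p = 0.442 in limma), and it was -0.0045 without WT-1 and -0.20 without WT-3. *Rims2* and *Rims3* had log2 differences of -0.017 and -0.07. For the very large scaffolds *Bsn* (Bassoon) and *Pclo* (Piccolo) they were 0.025 and -0.0029.

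The SNARE genes and their regulators had a median log2 difference of -0.0039, with 3 of 8 members higher. The sign of this median turned positive with the same upper quartile (0.00097) and with quantile normalization (0.00059), and with 1 library left out it ran from -0.04 (without TG-1) to 0.03 (without TG-2). *Snap25*, which encodes a plasma membrane SNARE, was the most abundant of the 43 genes per kilobase. It measured 93636, 84008 and 88137 normalized counts in TG and 83906, 92347 and 89561 in WT. The groups interleaved, and the log2 difference was -0.00046 (SE 0.086, unadjusted p = 0.996 in limma). *Vamp2*, the vesicle SNARE of most forebrain synapses, measured 35206, 35226 and 35392 normalized counts in TG and 32367, 34290 and 34671 in WT. The TG libraries lay close together and above the WT libraries, with a log2 difference of 0.06. *Stx1a*, the syntaxin partner, had a log2 difference of 0.09, *Vamp1* one of -0.05, and *Stxbp5*, whose product tomosyn restrains SNARE assembly, one of -0.0074. With 1 library left out, *Stx1a* ran from 0.029 to 0.14 and *Vamp1* from -0.16 to 0.0097.

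The complexins bind the assembled SNARE complex. *Cplx1* and *Cplx2* were close in level per kilobase, at 49.98% to 54.9% and 44.3% to 49.2% of complexin transcripts, with log2 differences of -0.027 and 0.04. *Cplx3*, a lipid-anchored complexin whose cortical expression is known from layer 6b, reached at most 1.04%. It measured 262, 452 and 330 normalized counts in TG and 386, 410 and 447 in WT, with TG-2 above all other libraries. In limma the log2 difference was -0.28 (SE 0.19, unadjusted p = 0.175), and -0.10 without TG-1. Without TG-2, the library high in olfactory bulb markers, the difference was -0.49 with an unadjusted p of 0.0126 and an adjusted p of 1.00, and its groups no longer overlapped, as was the case for 14.1% of all genes without that library. The layer 6b and claustrum markers summed to 1900 to 2412 in TG and 2111 to 2843 in WT, and 4 of these 5 genes were lower in TG, none at an unadjusted p under 0.05. Their part in the *Cplx3* values was not tested.

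The synaptotagmins and Doc2 proteins had 7 of 12 members higher in TG and log2 differences from -0.18 to 0.27. *Syt1*, the fast calcium sensor of forebrain synapses, was the most abundant of them per kilobase. It measured 49775, 45823 and 66407 normalized counts in TG and 45805, 50548 and 69688 in WT. The libraries numbered 3 were the highest in both genotypes, and the log2 difference between genotypes was -0.030 (SE 0.19, unadjusted p = 0.876 in limma). *Syt2*, the fast sensor of hindbrain and of parvalbumin interneuron terminals, had a log2 difference of -0.10, which ran from -0.25 without TG-3 to 0.018 without TG-2 and was -0.30 without both libraries numbered 3. The slower, high-affinity sensors *Syt3* and *Syt7* had log2 differences of -0.13 and 0.03. With 1 library left out they ran from -0.19 to -0.06 and from -0.06 to 0.15.

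*Syt17*, a synaptotagmin relative also called B/K, came next to *Unc13c* in p. It measured 813, 881 and 923 normalized counts in TG and 770.3, 782 and 737 in WT, with no overlap between the genotypes. Its log2 difference was 0.19 (SE 0.084, unadjusted p = 0.0526 in limma, 0.0321 with the block). *Syt12*, a synaptotagmin that does not bind calcium, measured 1046, 1179 and 954 normalized counts in TG and 1338, 1280 and 1002 in WT. Each TG library was below the WT library of the same number, although WT-3 fell among the TG values. Its log2 difference was -0.18 (SE 0.13), with an unadjusted p of 0.207 in limma and 0.0393 with the block, and it was -0.10 without WT-1 and -0.31 without WT-3. *Syt4* and *Syt11*, which lack some of the calcium-binding residues of *Syt1*, and *Syt13* had log2 differences of 0.0032, -0.06 and 0.011, and *Syt5* had one of 0.022. With 1 library left out, that of *Syt11* ran from -0.30 to 0.23.

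The Doc2 proteins are high-affinity calcium sensors linked to spontaneous and asynchronous release. *Doc2b* had the highest difference of all members, and it rested on TG-2. It measured 250.3, 412 and 236 normalized counts in TG and 261, 259 and 203 in WT. Without TG-2 the log2 difference went from 0.27 to 0.020. That library also held the high olfactory bulb marker counts, and their part in the *Doc2b* value was not tested. *Doc2a*, at 86.6% to 93.7% of the Doc2 transcripts per kilobase, had a log2 difference of 0.05, which ran from -0.11 to 0.19 with 1 library left out.

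Levels per kilobase of exon spanned from 28.04 normalized counts for *Syn3* to 13047 for *Snap25* in the WT means. After *Snap25* came *Vamp2* at 8867, *Cplx1* at 8185, *Slc17a7* at 7357 and *Syp* at 7279, while the syntaxin *Stx1a* stood at 3394 and *Vamp1* at 396. The priming and tethering genes were lower than these apart from *Vamp1*, with *Rims1* at 1448, *Unc13a* at 1311 and *Bsn* at 1269. The low end held the minor paralogues, with *Unc13c* at 92.5, *Slc17a6* at 74.6, *Doc2b* at 55.3 and *Sv2c* at 29.7. Members with higher counts tended to show smaller differences. Spearman's rho between the size of the log2 difference and the log2 mean count was -0.36 over the 43 genes, which share the same 6 libraries. With the longest coding transcript in place of the union of exons as the length, the leading gene of each role group stayed in place, but the order changed, with *Syp* at 14640, *Slc17a7* at 13609, *Syt1* at 11483 and *Rab3a* at 8807 above *Cplx1* at 8185.

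**Figure D3:**
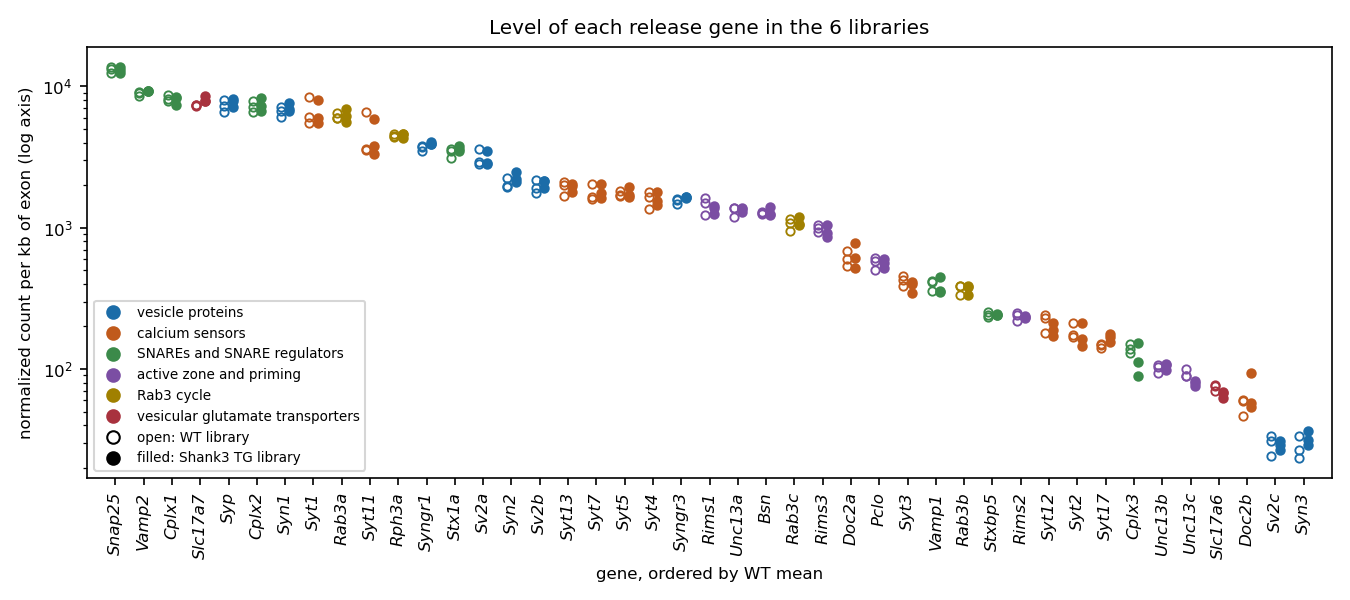
Level of each of the 43 release genes (x axis, ordered by WT mean) as normalized counts per kilobase of exon (y axis, log scale). Open points are the 3 WT libraries, filled points the 3 *Shank3* TG libraries, and colours the role groups; points of both genotypes lie together along the whole range from *Snap25* to *Syn3*.

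The libraries numbered 3 carried offsets in the members, as they did over all genes. The median size of the offset of library 3 from the mean of libraries 1 and 2 was 0.16 in TG and 0.17 in WT on the log2 scale, against 0.18 and 0.21 over all genes. The median size of the genotype difference was 0.05 for the members and 0.07 over all genes, but an offset that rests on 1 library is the noisier measure, so the sizes of the offset and of the genotype difference cannot be compared directly. The offset had the same sign in both genotypes for 31 of the 43 members (72.1%), and for 72.2% of all genes. Across the 43 members, which share the 6 libraries, Pearson's r between the offsets in TG and WT was 0.783, against 0.616 over all genes and 0.885 over the 10204 genes at or above the lowest member's mean level. The median size of the offset was 0.27 in TG and 0.29 in WT for the calcium sensor group, the highest of the 6 role groups. That group holds the synaptotagmins and Doc2 proteins, not all of which bind calcium. The offset of *Syt11* was 0.73 in TG and 0.88 in WT, with counts of 19752, 17279 and 30573 in TG and 18509, 18721 and 34249 in WT. That of *Syt1* was 0.48 and 0.53. In all, 7 members were offset upward by more than 0.25 in both genotypes (*Syn3*, *Sv2a*, *Syt1*, *Syt4*, *Syt7*, *Syt11* and *Doc2a*), and 8 were offset downward by more than 0.15 in both, against 2122 and 2691 of the 16714 genes tested. With both libraries numbered 3 left out, the median log2 difference of the members was -0.0098, and *Syt12* and *Syt2*, not *Unc13c*, had an unadjusted p under 0.05.

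**Figure D4:**
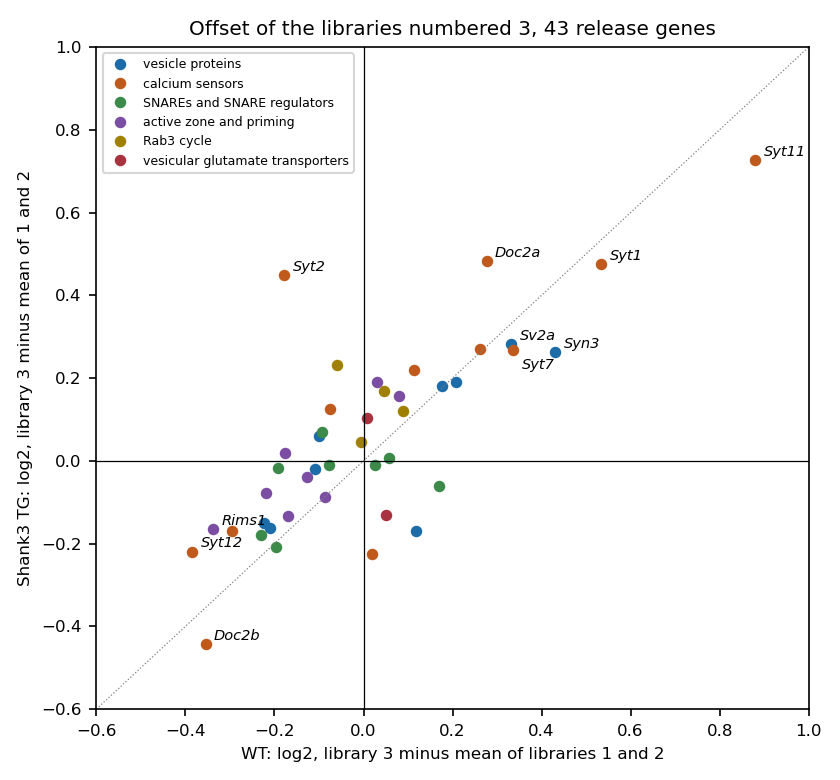
Offset of the library numbered 3 from the mean of libraries 1 and 2 in WT (x axis) and in *Shank3* TG (y axis), on the log2 scale, for each of the 43 release genes, coloured by role. The dotted line marks equal offsets; points spread along it from *Doc2b*, offset downward in both genotypes, to *Syt11* at 0.88 and 0.73, and *Syt2* lies off it.

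The other genes of the release and recycling pathway, 54 in 4 lists, also differed little. None passed an adjusted p of 0.05, with or without the block, 1 had an unadjusted p under 0.05, which is 1.85% against 2.01% of all genes, and with the block 6 did, 4 of them higher, which is 11.1% against 4.98% (*Svop*, *Stxbp5l*, *Synpr* and *Ap2a1* higher, *Ppfia1* and *Syt6* lower). The libraries did not overlap for 1 of the 54 (1.85%), against 6.02% of all genes. The median log2 difference was 0.015, with 33 higher and 21 lower in TG. By list, 6 of 9 other SNARE and fusion genes, 6 of 15 other active zone and docking genes, 11 of 14 other vesicle protein genes and 10 of 16 vesicle recycling genes were higher. *Svop*, a transporter-like vesicle protein related to SV2, had the smallest p. It measured 5213, 5168 and 5506 normalized counts in TG and 4860, 4666 and 4510.0 in WT, without overlap, with a log2 difference of 0.18 (SE 0.068, unadjusted p = 0.0306 in limma, 0.0136 with the block). *Stxbp5l*, the second tomosyn gene, and *Synpr*, which encodes synaptoporin, had log2 differences of 0.21 and 0.26, with unadjusted limma p of 0.0934 and 0.238, and of 0.0338 and 0.0022 with the block. On the lower side, *Ppfia1*, a liprin scaffold, *Syt6* and *Dnm3*, an endocytic dynamin, had log2 differences of -0.22, -0.43 and -0.12, with unadjusted limma p of 0.0557, 0.0707 and 0.272, and of 0.0399, 0.0212 and 0.0731 with the block.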

How the data were processed

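Transcripts of the 6 mPFC libraries were quantified by the authors with Salmon 0.9.1 on GRCm38 with GC bias correction, summed to genes with tximport and normalized in DESeq2 1.19.11 under R 3.6.0. The deposited values are signal, that is normalized counts (estimated counts divided by size factors) for 18254 genes, and were not whole reads, so no count model was used and depth is given as summed normalized counts. Since division by size factors sets libraries to a like total, a change shared by most genes would not be seen.

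Gene symbols, positions and exon lengths came from GENCODE M21. The 16714 genes whose mean reached 5 normalized counts were tested in limma 3.58.1 under R 4.3.3 on log2(value + 1), with genotype alone, a mean-variance trend, two-sided tests and Benjamini-Hochberg adjustment over all genes tested. The fold changes are on that scale. The p-values measure the spread between pooled libraries of 2 mice. The fit was also run on simulated data with independent noise in each library. Those data lack the offsets shared by libraries of the same number, and no result here rests on them. Replicate numbers were taken as pairing the libraries, since deviations from the genotype mean correlated at 0.30, 0.33 and 0.62 across genes for equal numbers and at most 0.27 for others. Results with the number as a block are therefore given for the counts of members and for members whose unadjusted p fell under 0.05 with it. They are not given for every gene.

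The members and lists were chosen with earlier results of these data known. Full statistics were given to the 8 members with the smallest p and to the most abundant member of each role group per kilobase. Of the 54 other pathway genes, the 3 with the smallest p in each direction were named. Others were named after their values had been seen. Transcripts of close paralogues may share reads. Promoters came from RefSeq.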

Additional observations from a re-analysis of the deposited data

How the results depend on the processing

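The count of members past an adjusted p of 0.05 was 0 under every alternative run. Over all genes, 1 gene passed with robust eBayes, the replicate block, both libraries numbered 3 left out, or the block with the same upper quartile (the last chosen after seeing the data), 26 passed under the empirical null, and 0 to 1 with 1 library left out. Members with an unadjusted p under 0.05 numbered 2 with a mean of at least 50, the same upper quartile, quantile normalization or both libraries 3 left out (1.67%, 1.99%, 2.02% and 2.81% of all genes), 4 under the empirical null (7.27%), 5 with the block (4.98%), 6 with the block and the same upper quartile (4.87%), and 0 to 4 with 1 library left out (1.31% to 2.5%). In that last set of fits *Unc13c* had an unadjusted limma p of 0.0436 without WT-2 and 0.0349 without WT-3, and of 0.0523 to 0.104 without each of the others. Members without overlap numbered 14 without both libraries 3, where 26.1% of all genes did not overlap, and 8 to 12 with 1 library left out, where 11.1% to 15.9% of all genes did not. The members' median was -0.0098 without both libraries 3 and -0.013 to 0.037 with 1 left out. The *Shank3* difference passed the threshold at 1.18 (robust eBayes, block, empirical null), 1.14 (both libraries 3 out) and 1.186 (block with upper quartile), and ranged from 1.09 to 1.24 with 1 library out. Signs turned for members near 0. *Snap25* became 0.0044 (upper quartile, with or without the block), 0.0054 (quantile) and 0.011 (both libraries 3 out), *Syt1* 0.0098 (quantile) and *Rab3a* -0.087 (both libraries 3 out). With 1 library out, *Snap25* ran from -0.041 to 0.04, *Syt1* from -0.19 to 0.15 and *Rab3a* from -0.067 to 0.083. *Syn2* ran from 0.08 (without TG-3) to 0.21 (without WT-3), and *Syp* from 0.016 (without WT-3) to 0.16 (without WT-2). The median of the vesicle proteins stayed between 0.07 and 0.12 in every setting, but all settings reuse the same 6 libraries. By replicate number it was 0.16, -0.0022 and 0.12. With 1 library out, the medians of the calcium sensor group (-0.07 without TG-3 to 0.12 without WT-3), active zone genes (-0.06 without WT-3 to 0.022 without WT-2) and Rab3 group (-0.03 without TG-3 to 0.05 without TG-1) changed sign.

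The numbers of reads were not used here, so counting error was not separated from spread between libraries, and 3 libraries per genotype leave a median half-width of the interval of 0.22 (log2) for a member, or 0.14 with the block.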

Other observations

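Among the vesicle recycling genes, *Ap2a1*, which encodes an alpha subunit of the endocytic adaptor AP-2, measured 6574, 9242 and 12368 normalized counts in TG and 6281, 6214 and 11856 in WT, with TG-2 also raised. Its log2 offset in the libraries numbered 3 was 0.67 in TG and 0.92 in WT. Its paralogue *Ap2a2* measured 5938 to 6403 in TG and 5799 to 6137 in WT. *Snap91*, the neuronal clathrin assembly protein, was offset by 0.39 and 0.59 and *Synj1*, the phosphatase that uncoats vesicles, by 0.27 and 0.51. *Synpr* was offset in the other direction, by -0.61 and -0.51, and had an unadjusted p of 0.0022 with the replicate block against 0.238 without it in limma. These genes were named after their values had been seen.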
